A study of Rattus norvegicus with 42 samples.

Results

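Mgp, S100a6 and Plcxd3 are 3 genes whose level rose when rat metanephric mesenchyme was moved from the embryo into culture without an inducer, and C1qtnf12 is a gene whose level fell. The 4 genes were picked by symbol for that change, among 14218 genes on the array, and are measured by 7 of its 31099 probe sets, the sets of short probes that each read 1 transcript. Every difference that involves fresh tissue or uninduced culture is therefore given below as a description without a test.

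The metanephric mesenchyme is the embryonic tissue that forms the nephrons of the kidney when it is induced by the ureteric bud. It was dissected from rats at embryonic day 13.5 and freed of the ureteric bud with pins after trypsin and DNase. There were 42 arrays in 21 groups of 2 samples labelled as biological replicates: fresh tissue, culture without inducer for 1 or 2 days, and culture with LIF, NGAL or ANX for 1, 2, 3, 4, 5 or 7 days. LIF is a cytokine that signals through gp130, NGAL (lipocalin 2) is a secreted protein that carries iron-binding molecules, and the labels do not say what ANX holds beyond calling it a fraction. All cultures, the uninduced ones included, grew on collagen-coated transwell filters in one medium: dexamethasone, T3 and prostaglandin with selenium, insulin and transferrin, plus an FGF and a TGF whose type cannot be read in the labels. No uninduced culture was older than 2 days, so later induced cultures have no control of their own day. The arrays read whole explants, in which fewer cells of a type and less RNA per cell cannot be told apart.

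Mgp encodes matrix Gla protein, a small secreted protein that needs vitamin K-dependent carboxylation and is known as an inhibitor of calcification in vessel walls and cartilage. S100a6 (calcyclin) is a calcium-binding protein of the S100 family, found in fibroblasts and epithelia, that binds annexins and the protein Cacybp. Plcxd3 belongs to the proteins that hold the X domain of phosphatidylinositol-specific phospholipase C. C1qtnf12 (adipolin, or CTRP12) is a secreted protein with a C1q-like domain, known best from fat tissue.

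The RefSeq promoter table (build GRCr8) held 3 of the 4 genes. All 3 changed on entry into culture, S100a6 and Plcxd3 upward and C1qtnf12 downward, so the 150 bases before each start are shown. They are printed 5′ to 3′ on the gene's own strand, the plus strand, with capitals at matches to the searched motifs.
S100a6, chr2:178398387-178398536: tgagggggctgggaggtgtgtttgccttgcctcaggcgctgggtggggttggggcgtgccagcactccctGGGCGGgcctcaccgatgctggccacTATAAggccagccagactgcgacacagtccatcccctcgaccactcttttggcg
Plcxd3, chr2:55294447-55294596: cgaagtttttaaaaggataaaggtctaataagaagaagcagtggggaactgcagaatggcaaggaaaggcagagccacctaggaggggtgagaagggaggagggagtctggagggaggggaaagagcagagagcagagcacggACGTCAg
C1qtnf12, chr5:171833704-171833853: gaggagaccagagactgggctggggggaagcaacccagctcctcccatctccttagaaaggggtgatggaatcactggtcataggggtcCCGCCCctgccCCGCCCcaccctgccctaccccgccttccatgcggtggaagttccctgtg
The motifs searched on both strands were TATAA (TATA box), GGGCGG (GC box), TGANTCA (AP-1), TTCNNNGAA (STAT), AGAACA (glucocorticoid half-site) and TGACGT (CRE half-site). The S100a6 window held a GC box at -80 to -75 and a TATA box at -54 to -50 from the start, the Plcxd3 window held a CRE half-site on the minus strand at -7 to -2, and the C1qtnf12 window held GC boxes on the minus strand at -61 to -56 and -50 to -45. No match overlapped another, and the AP-1, STAT and glucocorticoid letters occurred in none of the 3 windows. Of 33469 promoter windows of this length, 15.2% held the TATA letters, 26.0% the GC box, 5.31% the CRE half-site, 3.69% the AP-1, 4.41% the STAT and 10.8% the glucocorticoid letters. The printed windows thus share no motif of this list across all 3 genes. The GC content was 66.0% for S100a6, 52.7% for Plcxd3 and 64.7% for C1qtnf12, against a median of 52.7% over all windows. In GRCr8 the Mgp gene spans chr4:171497472-171500888, S100a6 chr2:178398189-178399763, Plcxd3 chr2:55294597-55473968 and C1qtnf12 chr5:171833854-171838229. The S100a6 window lies inside that gene's annotated span, downstream of its first base.

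Levels are log2 of the deposited intensities, and a level above log2 5.79, the 40th percentile of all values, is called measured. Array medians were 83.3 to 88.4 in intensity, and correlations between the replicates of a group ranged from 0.936 to 0.995 over all genes. The tissue label was checked against marker genes: all 10 mesenchyme markers on the array were measured in both fresh arrays, among them Eya1 at log2 11.13 and 10.97, Wt1 at 11.44 and 11.33 and Sall1 at 11.04 and 10.91. The lowest was Hoxd11, at 5.92 and 5.91. Of the ureteric bud markers, Ret was at 6.13 and 6.16 and Hoxb7 at 8.15 and 8.27. Of 12 bud markers on the array, 10 had a group mean above the threshold, and 5 of these were measured in each fresh array. All 11 renal stroma genes, 10 and 11 of 11 endothelial genes and 9 of 10 macrophage genes were measured there too. The check thus does not set mesenchyme apart from these cell types. A few arrays stood apart from their replicate in marker lists of other cell types. Replicate 2 of LIF day 4, LIF day 7 and ANX day 3 had a mean log2 level of the 7 skeletal muscle genes of 9.54, 8.06 and 8.02, against 5.93, 6.30 and 5.89 in replicate 1. Replicate 1 of NGAL day 3 and of NGAL day 7 had a mean log2 level of the mesenchyme markers of 7.78 and 7.85, against 8.77 and 8.42 in replicate 2. They also had a higher mean of the 10 macrophage genes, 7.44 and 6.97 against 6.29 and 6.13. These 5 arrays were chosen with the levels of markers and of the 4 genes in view: the first 3 are the higher Mgp arrays of the 3 groups with an Mgp gap over 1, and the other 2 are the lower C1qtnf12 arrays of the 2 groups with a C1qtnf12 gap over 1. The NGAL arrays of days 3 to 7 had muscle means of 7.07 to 10.99 and none was left out for it. Values without these arrays are therefore given as descriptions, with no call.

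Mgp had the largest rise of all genes from fresh tissue to day 2 of uninduced culture, by the values it was chosen on. Its probe set, 1367568_a_at, read log2 6.43 and 6.27 in fresh tissue, 10.89 and 10.58 after 1 day without inducer and 12.35 and 12.14 after 2 days. Those groups did not overlap. The difference from fresh tissue was 4.39 on the log2 scale at day 1 and 5.90 at day 2, rank 2 and rank 1 of 11388 genes ordered by that difference, with levels below the threshold taken as read.

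With LIF, the log2 levels of Mgp in replicates 1 and 2 were 11.76 and 11.91 on day 1, 11.68 and 11.77 on day 2, 12.12 and 12.13 on day 3, 11.18 and 13.30 on day 4, 11.94 and 11.75 on day 5 and 10.94 and 13.44 on day 7. On days 4 and 7 replicate 2 lay above every other LIF array and replicate 1 below every other, and the remaining LIF arrays lay between 11.68 and 12.13. With NGAL, they were 11.67 and 11.57 on day 1, 12.31 and 12.37 on day 2, 13.25 and 13.34 on day 3, 13.87 and 13.64 on day 4, 13.40 and 13.66 on day 5 and 13.76 and 13.53 on day 7. The NGAL arrays of days 3 to 7 lay above those of days 1 and 2 without overlap, and their replicates were close to each other. With ANX, the log2 levels of Mgp were 11.88 and 12.13 on day 1, 12.72 and 12.46 on day 2, 12.19 and 13.77 on day 3, 12.49 and 12.93 on day 4, 12.26 and 12.18 on day 5 and 12.09 and 12.93 on day 7. Replicate 2 of ANX day 3 was the highest ANX array. Both arrays of day 1 lay below those of days 2, 3, 4 and 5, those of day 5 lay below those of days 2 and 4, and day 7 overlapped every other ANX day. In the order of the 21 group means, NGAL days 4, 7, 5 and 3 came first, at 13.75 to 13.29, and fresh tissue last. Of the 20 neighbour pairs in that order 16 overlapped between their replicates.

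S100a6 followed Mgp on entry into culture. Its probe set, 1367661_at, read log2 5.90 and 6.40 in fresh tissue, 9.53 and 9.47 after 1 day without inducer and 10.92 and 10.84 after 2 days, again without overlap. The difference from fresh tissue was 3.35 at day 1 and 4.73 at day 2 on the log2 scale, rank 7 and rank 3 of 11388.

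With LIF, the log2 levels of S100a6 were 10.58 and 10.87 on day 1, 10.18 and 10.52 on day 2, 10.27 and 10.37 on day 3, 9.40 and 11.90 on day 4, 10.13 and 10.10 on day 5 and 10.50 and 11.82 on day 7. Replicate 2 of days 4 and 7 again stood above the other LIF arrays. With NGAL, they were 9.71 and 10.88 on day 1, 10.82 and 11.48 on day 2, 11.67 and 11.95 on day 3, 12.33 and 11.91 on day 4, 11.63 and 12.42 on day 5 and 12.80 and 12.35 on day 7. The NGAL arrays of days 3 to 7 all lay above log2 11.6, and those of days 1 and 2 below 11.5. With ANX, the log2 levels of S100a6 were 10.39 and 10.72 on day 1, 10.44 and 10.62 on day 2, 9.79 and 11.98 on day 3, 9.77 and 10.26 on day 4, 10.51 and 10.82 on day 5 and 10.07 and 10.71 on day 7. Only replicate 2 of ANX day 3 lay above log2 11 among the ANX arrays. The first 4 of the 21 group means were NGAL days 7, 4, 5 and 3, from 12.57 to 11.81, and 17 of 20 neighbour pairs in the order overlapped.

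Plcxd3 was not measured in fresh tissue and was high in uninduced culture. Its probe set, 1376654_at, read log2 4.40 and 4.26 in fresh tissue, 9.94 and 7.74 after 1 day without inducer and 9.88 and 10.34 after 2 days. The difference from fresh tissue was 4.52 and 5.78 on the log2 scale, or 3.06 and 4.32 with the fresh level set to the threshold. Since the fresh level is below the threshold, no rank is given for this gene. Signs of RNA and labelling quality also differed between these arrays. The log2 level of the 5S ribosomal RNA probe set was 6.32 and 6.62 in fresh tissue, 8.67 and 7.56 at uninduced day 1 and 10.10 and 10.32 at day 2. The other sign was the log2 ratio of the 3′ to the 5′ probe sets of the labelling control dap. It was 1.06 and 1.08 in fresh tissue, 1.97 and 0.77 at uninduced day 1 and 1.97 and 2.04 at day 2. Replicate 2 of uninduced day 1, with Plcxd3 at 7.74, thus had a dap ratio below that of fresh tissue. The same arrays carry the differences of Mgp, S100a6 and C1qtnf12 from fresh tissue, and the part of either sign in them was not tested.

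With LIF, the log2 levels of Plcxd3 were 6.90 and 8.68 on day 1, 5.91 and 8.33 on day 2, 8.93 and 7.99 on day 3, 7.44 and 9.0 on day 4, 7.91 and 8.51 on day 5 and 5.44 and 8.38 on day 7. With NGAL, they were 8.61 and 7.80 on day 1, 9.97 and 9.85 on day 2, 9.45 and 8.39 on day 3, 9.16 and 8.90 on day 4, 8.70 and 7.65 on day 5 and 8.03 and 7.90 on day 7. With ANX, they were 6.77 and 7.61 on day 1, 7.07 and 8.83 on day 2, 5.89 and 8.84 on day 3, 5.66 and 8.33 on day 4, 6.65 and 5.57 on day 5 and 5.24 and 8.42 on day 7. Levels were lower with ANX than with NGAL on most days, but replicates of Plcxd3 were far apart: the gap between the replicates was over 1 on the log2 scale in 12 of 21 groups and reached 3.18 at ANX day 7. At day 2 the mean with LIF minus the uninduced mean of the same day was -2.99 on the log2 scale, that with ANX -2.16 and that with NGAL -0.20. The uninduced day 2 group had the highest mean of all 21 groups, 10.11, and NGAL day 2 the next, 9.91, and these groups also had the highest 5S ribosomal RNA signal (9.63 and 9.36 at NGAL day 2). In the order of means 18 of 20 neighbour pairs overlapped, so the order within the induced groups is mostly within replicate spread.

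C1qtnf12 fell on entry into uninduced culture and was higher with each inducer on day 1. The probe set 1392200_a_at, the brightest of its 4, read log2 9.42 and 9.13 in fresh tissue, 6.34 and 6.80 after 1 day without inducer and 6.61 and 6.83 after 2 days. The difference from fresh tissue was -2.70 at day 1 and -2.55 at day 2 on the log2 scale, rank 6 and rank 15 from the bottom of 11388 genes.

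With LIF, the log2 levels of C1qtnf12 were 9.98 and 9.95 on day 1, 8.30 and 8.35 on day 2, 8.54 and 8.70 on day 3, 10.37 and 10.55 on day 4, 10.25 and 10.35 on day 5 and 9.89 and 9.56 on day 7. With NGAL, they were 9.06 and 9.04 on day 1, 7.11 and 6.71 on day 2, 6.62 and 8.73 on day 3, 10.09 and 9.83 on day 4, 11.30 and 10.61 on day 5 and 8.28 and 10.76 on day 7. Both series dipped at day 2 and were higher again on days 4 and 5. With ANX, the log2 levels of C1qtnf12 were 10.32 and 9.66 on day 1, 9.05 and 8.98 on day 2, 10.23 and 10.65 on day 3, 10.85 and 11.24 on day 4, 10.97 and 10.01 on day 5 and 10.41 and 10.23 on day 7. The mean with inducer minus the uninduced mean of the same day was 3.39 for LIF, 2.48 for NGAL and 3.42 for ANX at day 1, on the log2 scale, and no induced array overlapped the uninduced ones. At day 2 it was 1.60 for LIF, 2.29 for ANX and 0.19 for NGAL, whose arrays overlapped the uninduced arrays. These are descriptions, since the uninduced arrays chose the gene. The highest group means were 11.05 at ANX day 4 and 10.96 at NGAL day 5, and the lowest were the uninduced cultures. In that order 17 of 20 neighbour pairs overlapped.

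**Figure D1:**
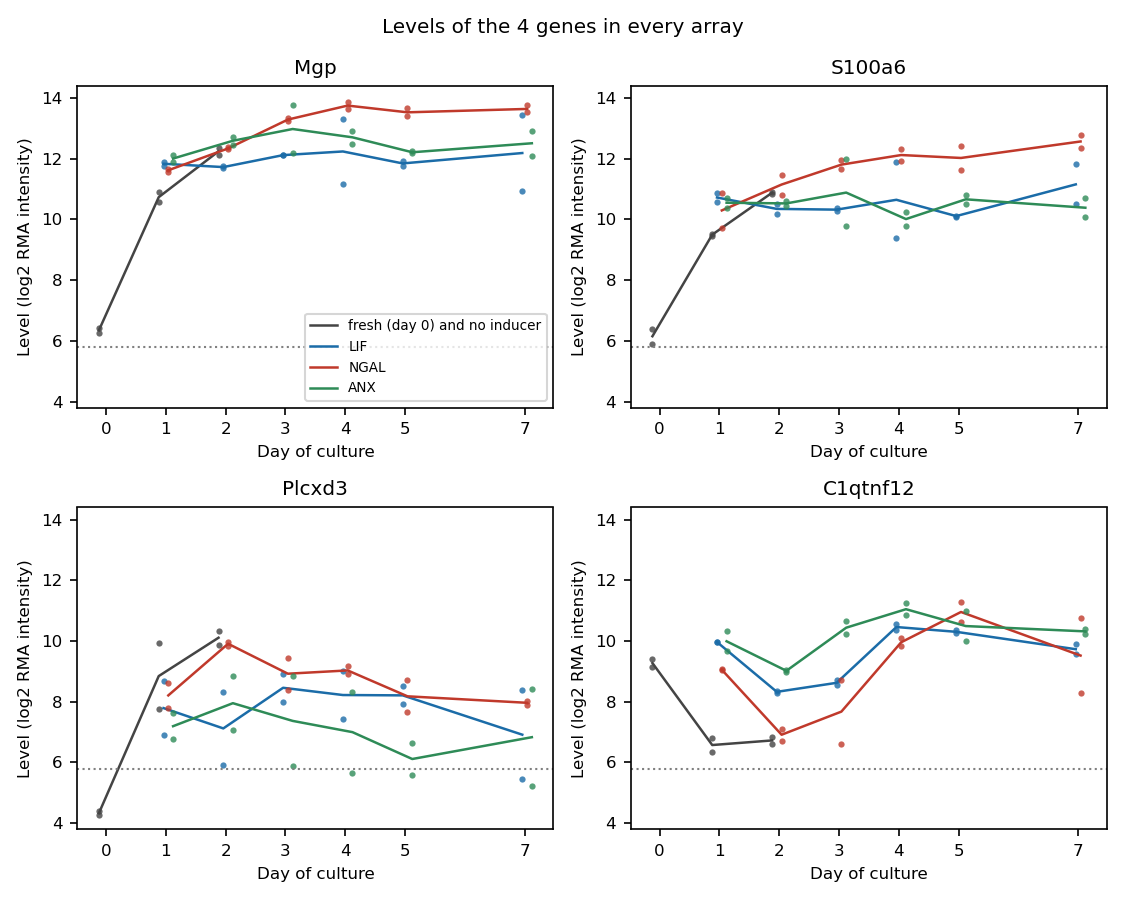
Log2 level (y axis) of Mgp, S100a6, Plcxd3 and C1qtnf12 (probe set 1392200_a_at) by day of culture (x axis), with fresh tissue at day 0. Points are single arrays, lines join the means of 2 arrays, colours mark the inducer and the dotted line is the threshold of log2 5.79. Fresh tissue lies lowest for Mgp, S100a6 and Plcxd3, NGAL arrays of days 3 to 7 lie high for Mgp and S100a6, and C1qtnf12 is lowest in uninduced cultures and with NGAL at day 2.

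The other probe sets of C1qtnf12 were compared with 1392200_a_at by pattern only, since levels of different probe sets are on different scales. Across 21 group means 1385792_at correlated with it at r = 0.996 and 1393975_a_at at r = 0.960. Probe set 1385792_at read 8.60 and 8.55 in fresh tissue, 6.11 and 6.58 after 1 uninduced day, and ranged from 6.11 to 10.81 over all arrays. Probe set 1393975_a_at read 8.23 and 8.40 in fresh tissue, 7.17 and 7.65 after 1 uninduced day, and ranged from 7.17 to 10.03. The fourth, 1386194_at, was below the threshold in all 42 arrays, from 4.81 to 5.60, so it gives no measured level. The 3 measured probe sets thus showed the fall in uninduced culture, with a smaller difference on 1393975_a_at (-0.90 at day 1) than on 1385792_at (-2.23).

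**Figure D2:**
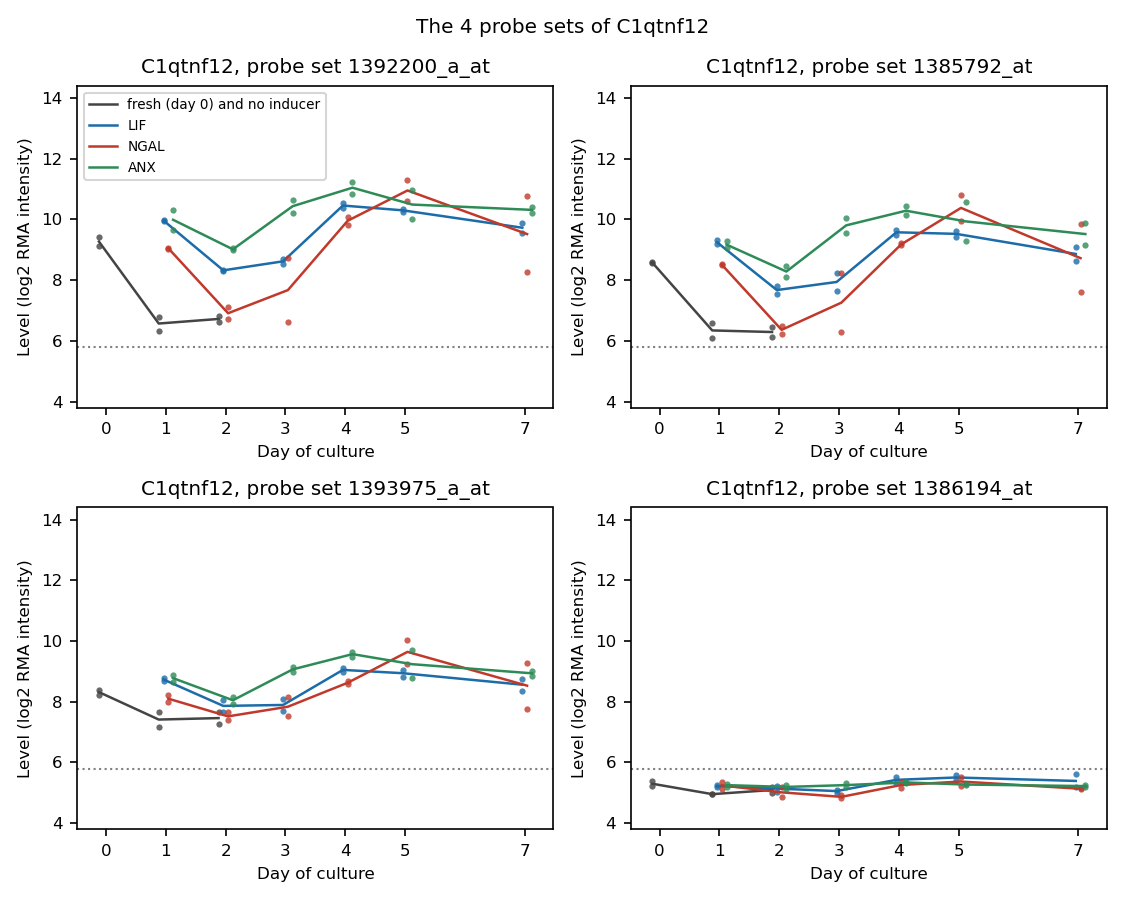
Log2 level (y axis) of the 4 C1qtnf12 probe sets by day of culture (x axis), drawn as points for single arrays and lines for means of 2 arrays, with the threshold dotted. The first 3 probe sets share 1 pattern, and 1386194_at stays below the threshold in every array.

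The change from fresh tissue to uninduced culture that picked the genes uses no induced array, so the induced arrays were tested. Earlier results of these data were known at that choice, so the tests are not fully independent of it. Cultures of days 5 and 7 were first compared with those of days 1 and 2 within each inducer, with limma over all 11388 measured genes and Benjamini-Hochberg adjustment; a gene with an adjusted p under 0.05 is called. With NGAL, 3 of the 4 genes were called, all higher late, where 12.0% of all genes were called. Mgp rose by 1.61 on the log2 scale (SE 0.391, 95% interval 0.80 to 2.41, adjusted p = 0.00784), from 11.57 to 12.37 in the 4 early arrays to 13.40 to 13.76 in the 4 late arrays. S100a6 rose by 1.57 (SE 0.42, 95% interval 0.71 to 2.44, adjusted p = 0.0147), from 9.71 to 11.48 early to 11.63 to 12.80 late. Neither gene overlapped between its early and late NGAL arrays, for S100a6 narrowly, at 11.48 against 11.63. The share of all genes without such overlap was not counted, so the lack of overlap is a description. C1qtnf12 rose by 2.26 (SE 0.376, 95% interval 1.48 to 3.03, adjusted p = 0.000257), and its early range of 6.71 to 9.06 overlapped the late range of 8.28 to 11.30. Its 2 other measured probe sets were also called, at 2.12 and 1.28 (adjusted p = 0.000792 and 0.00148 over 20868 probe sets). Plcxd3 was not called, at -0.99 on the log2 scale with a 95% interval of -2.62 to 0.64.

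The Mgp call late with NGAL held in all 8 fits that left out 1 NGAL array (adjusted p up to 0.0352), and so did the C1qtnf12 call (adjusted p up to 0.00215). The C1qtnf12 difference between day 7 and day 1 alone was 0.47 (adjusted p = 0.586), with arrays at 9.06 and 9.04 on day 1 and 8.28 and 10.76 on day 7. In a fit of only the 8 NGAL arrays compared, C1qtnf12 had an adjusted p of 0.0504. The S100a6 call, by contrast, was lost in 4 of the 8 fits that left out 1 NGAL array, at adjusted p of 0.0839 without replicate 1 of NGAL day 1, 0.079 without replicate 1 of day 2, 0.08 without replicate 2 of day 5 and 0.0626 without replicate 1 of day 7. Of the NGAL arrays low in mesenchyme markers, only replicate 1 of day 7 enters this contrast. Without it the log2 difference was 1.46 for S100a6 and 2.88 for C1qtnf12.

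With LIF, 0 of the 4 genes were called by limma for days 5 and 7 against days 1 and 2, where 9.09% of all genes were. Only C1qtnf12 had an unadjusted p under 0.05, with a log2 difference of 0.87 (95% interval 0.10 to 1.65, adjusted p = 0.156). Mgp differed by 0.24 (95% interval -0.57 to 1.04), S100a6 by 0.10 (-0.77 to 0.96) and Plcxd3 by 0.11 (-1.52 to 1.73). Without replicate 2 of LIF day 7 the signs of Mgp, S100a6 and Plcxd3 turned, to -0.39, -0.23 and -0.63.

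With ANX, 0 of the 4 were called by limma in the same contrast, against 15.9% of all genes, and again C1qtnf12 alone had an unadjusted p under 0.05 (log2 difference 0.90, 95% interval 0.13 to 1.68, adjusted p = 0.107). It was called in the fits with array weights (adjusted p = 0.0361) and with only the ANX arrays compared (0.043). Mgp differed by 0.06 (95% interval -0.74 to 0.87), S100a6 by -0.01 (-0.88 to 0.85) and Plcxd3 by -1.10 (-2.73 to 0.53).

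A call with NGAL and none with LIF or ANX does not by itself show a difference between inducers, so the late changes were also compared with each other, in tests added after the data had been seen. None of the 4 genes was called by limma in any pair, where 0.316% of all genes were called for LIF against NGAL, 2.79% for NGAL against ANX and 0.0439% for LIF against ANX. The late change of Mgp was 1.37 lower with LIF than with NGAL (difference -1.37, adjusted p = 0.291) and 1.54 higher with NGAL than with ANX (adjusted p = 0.132). The corresponding values were -1.48 and 1.59 for S100a6 (adjusted p = 0.287 and 0.15) and -1.39 and 1.36 for C1qtnf12 (adjusted p = 0.256 and 0.174). These 6 differences had unadjusted p-values from 0.01 to 0.0206. Of the 3 arrays high in muscle genes, only replicate 2 of LIF day 7 enters the LIF against NGAL comparison of late changes. Without it the late changes of Mgp and S100a6 differed between LIF and NGAL by -2.00 and -1.81. Of the 2 NGAL arrays low in mesenchyme markers, only replicate 1 of day 7 enters the late changes. Without that array the late change of C1qtnf12 differed by -2.01 for LIF against NGAL and by 1.98 for NGAL against ANX. Both arrays were chosen with Mgp and C1qtnf12 levels in view, so these values are descriptions with no call. In the moderated F-test of inducer by day 0 of the 4 were called by limma, against 0.0351% of all genes, and C1qtnf12 had the smallest unadjusted p, 0.0281.

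The inducers were then compared with each other over the mean of 6 days. NGAL against LIF moved 41.7% of all genes past the threshold, so the 3 calls among the 4 genes stand against a high background. Mgp was lower with LIF than with NGAL by 1.04 on the log2 scale (difference -1.04, SE 0.226, adjusted p = 0.000719). Over 12 arrays each, its levels had a median of 11.84 with LIF (10.94 to 13.44) and 13.37 with NGAL (11.57 to 13.87), which overlap. S100a6 was lower with LIF by 1.11 (difference -1.11, SE 0.242, adjusted p = 0.000737), with medians of 10.44 (9.40 to 11.90) and 11.79 (9.71 to 12.80). For both genes the difference was small on days 1 and 2, at -0.20 and -0.19 (adjusted p = 0.829 and 0.852). C1qtnf12 was higher with LIF by 0.56 (SE 0.217, adjusted p = 0.0426), a call lost in 19 of 24 fits that left out 1 array, with all probe sets tested (0.0532) and with the mean of its probe sets (0.308, adjusted p = 0.0899). The difference was 0.35 without replicate 1 of NGAL day 7, 0.38 without replicate 1 of NGAL day 3 and 0.17 without both. The 2 other measured probe sets of C1qtnf12 were not called by limma. They differed by 0.40 on 1385792_at and 0.13 on 1393975_a_at (adjusted p = 0.168 and 0.511 over 20868 probe sets). Plcxd3 was not called, at -0.92 (95% interval -1.86 to 0.02, adjusted p = 0.11), but was with a replicate block in each arm (adjusted p = 0.0355). The Plcxd3 difference was -1.16 without replicate 2 of LIF day 7. Of the 3 arrays high in muscle genes, only replicate 2 of LIF day 4 and of LIF day 7 enter this contrast. Without them the Plcxd3 difference was -1.29.

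NGAL against ANX had 37.5% of all genes called and 3 of the 4 genes. S100a6 was higher with NGAL by 1.16 (SE 0.242, adjusted p = 0.000738), against an ANX median of 10.48 (9.77 to 11.98). Plcxd3 was higher with NGAL by 1.63 (SE 0.456, adjusted p = 0.00726), with medians of 8.66 (7.65 to 9.97) and 6.92 (5.24 to 8.84). C1qtnf12 was lower with NGAL by 1.21 (difference -1.21, SE 0.217, adjusted p = 0.000175), with medians of 9.05 (6.62 to 11.30) and 10.28 (8.98 to 11.24). All 3 calls held in each of the 24 fits that left out 1 array. Mgp was not called, at 0.53 (95% interval 0.06 to 0.99, adjusted p = 0.0681). Its difference was -0.32 on days 1 and 2 and 0.95 on days 3 to 7 (adjusted p = 0.75 and 0.00942). Of the 3 arrays high in muscle genes, only replicate 2 of ANX day 3 enters this contrast. The Mgp difference was 0.66 without it and 0.60 without replicate 2 of ANX day 7. Mgp was called with a replicate block in each arm (adjusted p = 0.0443).

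LIF against ANX had 5.01% of all genes called and 0 of the 4 by limma, although Mgp and C1qtnf12 had unadjusted p-values of 0.0332 and 0.00619. The log2 difference was -0.51 for Mgp (95% interval -0.97 to -0.04, adjusted p = 0.202), 0.05 for S100a6 (-0.45 to 0.55), 0.71 for Plcxd3 (-0.23 to 1.65) and -0.65 for C1qtnf12 (-1.10 to -0.20, adjusted p = 0.0833). The Mgp difference was -0.69 without replicate 2 of LIF day 4 and -0.72 without replicate 2 of LIF day 7. It was -0.76 without the 3 LIF and ANX arrays high in muscle genes. With only the LIF and ANX arrays in the fit C1qtnf12 was called (adjusted p = 0.00383).

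Day 2 differed from day 1 for 2.73% of all genes over the 3 inducers, and for 1 of the 4. C1qtnf12 fell by 1.59 on the log2 scale from day 1 to day 2 (difference -1.59, SE 0.307, 95% interval -2.22 to -0.95, adjusted p = 0.00814). The change was -1.64 with LIF, -2.14 with NGAL and -0.97 with ANX, none of which was called alone. The call held in all 12 fits that left out 1 array, at adjusted p up to 0.0437. Probe set 1385792_at was called too (-1.54, adjusted p = 0.0148), and 1393975_a_at missed the threshold (-0.73, adjusted p = 0.0626). For the other 3 genes the day 2 difference was 0.40 (Mgp), 0.15 (S100a6) and 0.60 (Plcxd3), each with a 95% interval that includes 0.

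**Figure D3:**
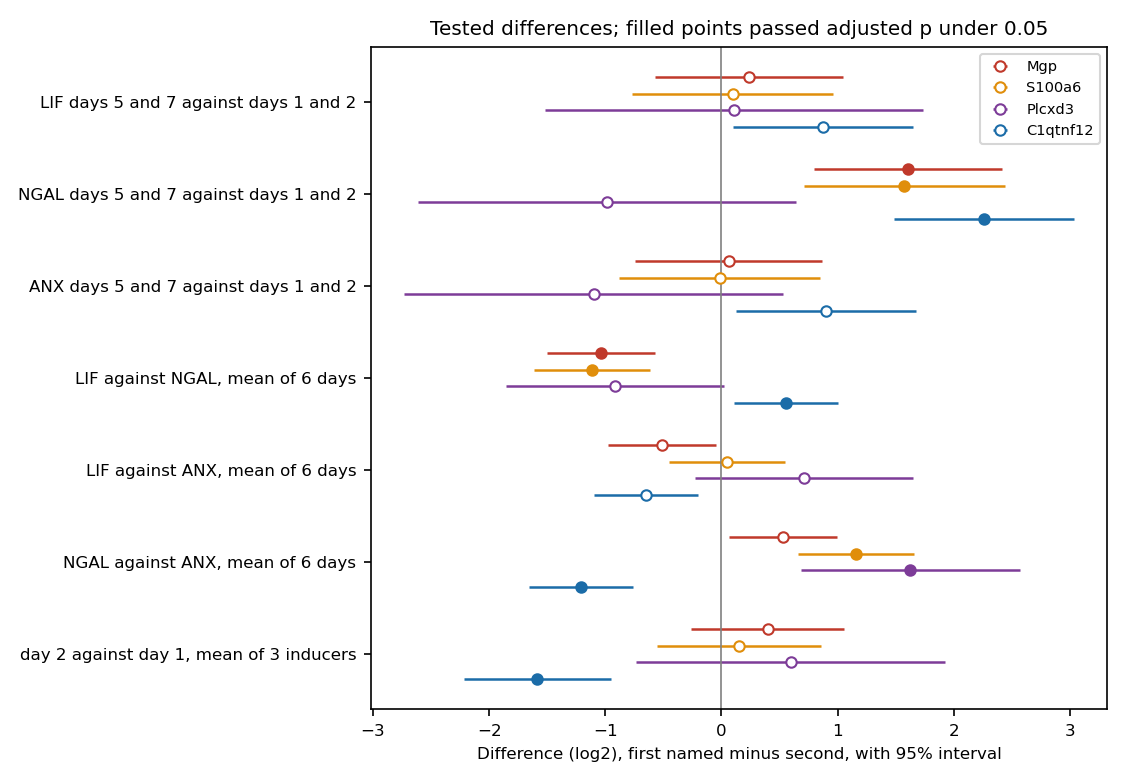
Log2 difference with its 95% interval (x axis) of each of the 4 genes in 7 comparisons of induced cultures (y axis), as first named minus second named. Filled points were called by limma: Mgp, S100a6 and C1qtnf12 late with NGAL, the same 3 genes for LIF against NGAL, S100a6, Plcxd3 and C1qtnf12 for NGAL against ANX, and C1qtnf12 for day 2 against day 1.

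Markers of other cell types were also called in the NGAL differences, where 41.7% of all genes were called for LIF against NGAL, 37.5% for NGAL against ANX and 12.0% late with NGAL. Of 11 renal stroma genes, 9 were lower and 1 higher with LIF than with NGAL, and 9 were higher and 1 lower with NGAL than with ANX. Their mean log2 level ran from 9.22 to 9.97 with NGAL, 8.21 to 9.35 with LIF and 8.32 to 9.56 with ANX, and their summed intensity from 15790 to 28410, 10110 to 16550 and 10270 to 21130. In fresh tissue the mean was 9.83 and 9.87. Of 11 smooth muscle and pericyte genes, 8 were lower with LIF than with NGAL and 8 higher with NGAL than with ANX, with summed intensities of 4533 to 13310 (NGAL), 2588 to 4610 (LIF), 2614 to 5439 (ANX) and 3004 to 3063 (fresh). Of 7 skeletal muscle genes, 6 were lower with LIF than with NGAL and 7 higher with NGAL than with ANX. Their summed intensity reached 21520 with NGAL, 6997 with LIF and 3244 with ANX, against 459 to 486 in fresh tissue, where Myod1, Tnnt1, Myh3 and Acta1 were below the threshold. In the late NGAL contrast 4 of these 7 muscle genes were called higher, against 1 of 11 stroma genes higher and 2 lower. Of 10 mesenchyme markers, 5 were higher with LIF than with NGAL and 7 lower with NGAL than with ANX. Of 10 macrophage genes, 6 were lower with LIF than with NGAL and 6 higher with NGAL than with ANX, and of 10 cartilage genes 3 were higher and 1 lower with LIF than with NGAL. Of 11 endothelial genes 5 were lower and 1 higher with LIF than with NGAL, and 7 fell late with NGAL. In the comparisons of NGAL with LIF and ANX, the counts for stroma, smooth muscle and skeletal muscle lie above those shares, and those for cartilage genes (4 of 10) and, for LIF against NGAL, mesenchyme markers (5 of 10) lie near them. The part of these cell types in the differences of the 4 genes was not tested.

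Replicates of a group were also compared at single arrays. In the 3 groups where Mgp differed by over 1 on the log2 scale between replicates (LIF days 4 and 7, ANX day 3), S100a6, Plcxd3, the stroma list and the skeletal muscle list were all higher in the same array. The stroma mean was 9.13 against 8.21, 9.19 against 8.21 and 9.36 against 8.32 in those 3 groups. Over all 21 groups, the gap of Mgp had the sign of the S100a6 gap in 17 groups and of the stroma gap in 15. The gap of Plcxd3 had the sign of the stroma gap in 18 groups. Stroma did not stand alone: the endothelium gap had the sign of the Plcxd3 gap in 17 groups and of the Mgp gap in 14, while the mesenchyme gap had it in 4 and 7. In the 3 groups with a large Mgp gap, smooth muscle and endothelium genes were also higher in the same array, and mesenchyme and cartilage genes lower. The dap ratio, from a bacterial control transcript on the array, moved with the Plcxd3 gap as well: it ran from 0.77 to 2.35, and its gap had the sign of the Plcxd3 gap in 17 of 21 groups and in all 12 with a Plcxd3 gap over 1. After 1 day without inducer, for example, dap was at 1.97 and 0.77 in the arrays where Plcxd3 was at 9.94 and 7.74. The dap gap also had the sign of the Mgp gap in all 3 groups with an Mgp gap over 1. It had the sign of the S100a6 gap in 3 of the 4 groups with an S100a6 gap over 1. Over all 21 groups the signs were the same in 12 for Mgp and in 12 for S100a6. With this ratio as a covariate Plcxd3 stayed called for NGAL against ANX (1.43, adjusted p = 0.00037) and was called for LIF against NGAL (-1.09, adjusted p = 0.00273), and Mgp and S100a6 kept their calls late with NGAL (adjusted p = 0.00223 and 0.00803). C1qtnf12 behaved otherwise: its gaps over 1 were NGAL days 3 and 7, where the array with less C1qtnf12 was low in mesenchyme markers and high in macrophage genes. In those 2 groups smooth muscle, cartilage, ureteric bud and skeletal muscle genes were also lower in that array, and stroma and endothelium genes higher. Over all 21 groups, the C1qtnf12 gap had the sign of the mesenchyme gap in 11 and of the macrophage gap in 11.

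**Figure D4:**
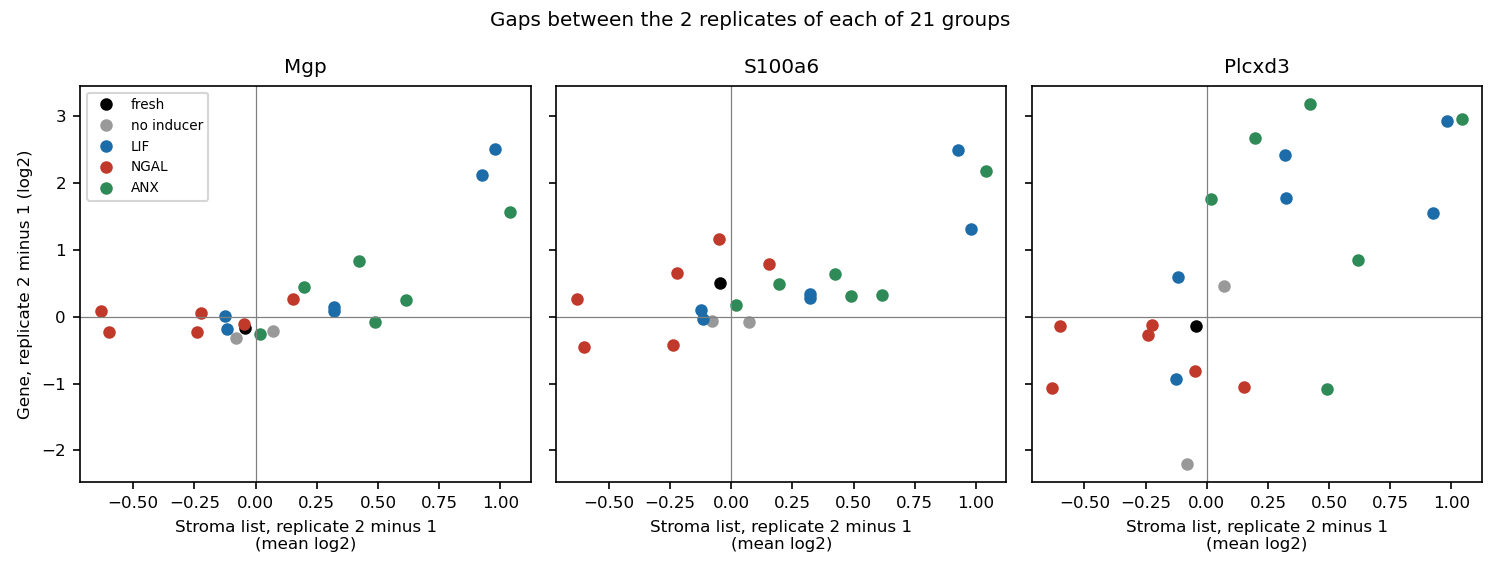
Difference between replicate 2 and replicate 1 of each of the 21 groups, for the mean log2 level of 11 renal stroma genes (x axis) and for the log2 level of Mgp, S100a6 and Plcxd3 (y axis, 1 panel each). Colours mark the arm; LIF days 4 and 7 and ANX day 3 lie at the upper right of each panel, at stroma gaps of 0.93, 0.98 and 1.04.

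Gene families of the 4 were described from lists drawn up for each gene, as counts of called members beside the same median over all genes. The shares of all genes called, against which the counts are to be read, were 41.7% for LIF against NGAL, 37.5% for NGAL against ANX, and 9.09%, 12.0% and 15.9% late with LIF, NGAL and ANX. For Mgp, 9 genes of the vitamin K cycle and other Gla proteins were measured of 19 listed. Of these, 8 were lower with LIF than with NGAL (median log2 difference -0.81, against 0.03 over all genes), among them Ggcx (-0.59, adjusted p = 7.96e-06), the carboxylase that modifies Mgp, and Vkorc1 (-0.90, adjusted p = 4.01e-05), which recycles vitamin K. Against ANX, 6 of the 9 were higher with NGAL (median 0.35, against -0.04 over all genes). These 2 genes were named after their values were seen. In the late NGAL contrast the matrix protein Postn rose by 2.02 (SE 0.412, adjusted p = 0.00184) and Prrg3 fell by 0.81 (adjusted p = 0.0116), and the other 7 were not called. Prrg3 also fell late with LIF by 1.03 and with ANX by 0.85 (adjusted p = 0.00283 and 0.00631), and Nqo1 fell late with ANX by 1.66 (adjusted p = 0.00114).

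Of 16 genes that promote or inhibit mineralisation 8 were measured. Late with NGAL 6 rose and 0 fell (median 1.04, against -0.04 over all genes), among them the signalling proteins Bmp4 (1.36, SE 0.221, adjusted p = 0.000197) and Bmp2 (1.41, SE 0.233, adjusted p = 0.000236). Late with LIF 3 rose, led by Bmp2 (2.13, adjusted p = 2.77e-06) and with Nt5e, which makes adenosine, at 0.70 (adjusted p = 0.0179). Late with ANX 4 rose, led by Spp1 (osteopontin), at 2.89 (SE 0.431, adjusted p = 6.15e-05), and Bmp4 (1.36, adjusted p = 0.00015). Genes of this list thus rose late in all 3 arms, while Mgp was called with NGAL alone, and the difference between them was not tested.

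For S100a6, 8 other S100-named genes were measured of 16 listed. Of these, 7 were lower with LIF than with NGAL (median -0.75, against 0.03 over all genes) and 7 higher with NGAL than with ANX (median 0.76, against -0.04). Late with NGAL 3 rose and 1 fell, the largest change being S100a4 (2.81, SE 0.384, adjusted p = 3.04e-05), an S100 protein of fibroblasts and motile cells. S100a3 rose by 0.51 (adjusted p = 0.0335), and S100pbp, which is named for binding S100 proteins, fell by 0.33 (adjusted p = 0.0291). Late with LIF or ANX 0 of the 8 were called by limma. Of 14 listed partners of the S100A6 protein all 14 were measured, and 7 were lower and 3 higher with LIF than with NGAL. The membrane-binding annexin Anxa1 rose late with NGAL by 1.65 (SE 0.416, adjusted p = 0.0102) and Tppp, a tubulin-binding protein, fell by 2.03 (SE 0.344, adjusted p = 0.000316). Anxa2 fell late with LIF by 1.00 and with ANX by 1.36 (adjusted p = 0.0406 and 0.00344), and Anxa5 rose late with both, by 0.43 and 0.38 (adjusted p = 0.0158 and 0.0201).

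For Plcxd3, 13 genes of the phosphatidylinositol phospholipase C family were measured of 17 listed. They were split in direction, with 4 higher and 5 lower for LIF against NGAL and 3 higher and 2 lower for NGAL against ANX, while LIF against ANX called 1, lower. The 5 of 13 called for NGAL against ANX are near the share over all genes. Late with NGAL, Plcl1, a family member without catalytic activity, rose by 1.48 (SE 0.386, adjusted p = 0.0124) and Plcb1 by 0.95 (adjusted p = 0.0146), while Plcb4 fell by 0.77 (adjusted p = 0.00301) and Plcl2 by 0.66 (adjusted p = 0.000605). Plcl2 fell late with LIF and ANX as well, by 0.50 and 0.51 (adjusted p = 0.00857 and 0.00415). Plcl1 also rose late with LIF, by 1.35 (adjusted p = 0.0292), and Plcb1 with ANX, by 0.83 (adjusted p = 0.026).

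For C1qtnf12, 17 genes with a C1q-like domain were measured of 28 listed. In the comparisons of NGAL with ANX and LIF their direction was mostly opposite to that of C1qtnf12: 10 were higher and 0 lower with NGAL than with ANX (median 0.36, against -0.04 over all genes), and 8 were lower and 2 higher with LIF than with NGAL. The C1qtnf12 call for LIF against NGAL was itself lost under several alternatives given above. Late with NGAL, where C1qtnf12 rose, 3 of the 17 rose and 1 fell. The secreted C1qtnf7 rose there by 1.43 (SE 0.199, adjusted p = 3.5e-05) and C1qtnf5 by 0.70 (adjusted p = 0.00696), and Mmrn2, a matrix protein of endothelium, fell by 1.17 (SE 0.176, adjusted p = 8.81e-05). Mmrn2 fell late with ANX too, by 1.25 (adjusted p = 3.13e-05). Emilin1, a protein of elastic fibres, fell late with LIF by 0.73 and with ANX by 0.61 (adjusted p = 0.0181 and 0.0323). Cbln2, a secreted synaptic organiser, rose late with LIF by 0.73 and with ANX by 0.96 (adjusted p = 0.0338 and 0.00314), and Emilin2 late with LIF by 0.63 (adjusted p = 0.0032).

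The genes whose 21 group means were most like those of each of the 4 were found by Pearson's r over the 11388 measured genes. All groups share the dissection and the 20 cultured groups the medium, and fresh tissue enters r as 1 of 21 points, so r is given as a description. For Mgp they were Cd63 (r = 0.964), Shisa5 (0.963), Bag3 (0.955), S100a6 (0.948) and Rerg (0.945). For S100a6 they were Reep5 (r = 0.966), Mgp (0.948), Tnip2 (0.946), Lamp1 (0.944) and Lgals3 (0.943). Mgp and S100a6 were among each other's 5 nearest genes, but both were chosen for a rise from fresh to uninduced groups, which enter r. Fresh tissue was their lowest group, at log2 6.35 and 6.15, with uninduced day 1 next, at 10.74 and 9.50. Over the 18 induced groups alone the r of Mgp and S100a6 was 0.822, while Mgp and Plcxd3 gave 0.273 and S100a6 and Plcxd3 0.391. The nearest genes were not ranked over those groups. For Plcxd3 the nearest genes were Mea1 (r = 0.906), Tent5a (0.900), Sra1 (0.896), Zdhhc16 (0.860) and Arid5b (0.859). For C1qtnf12 they were Mfge8 (r = 0.946), Pgam1 (0.940), Id1 (0.929), Pax8 (0.922), a transcription factor of early nephrons, and Krt15 (0.921). C1qtnf12 and Plcxd3 ran against each other, at r = -0.535 over all 21 groups and -0.585 over the 18 induced ones.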

How the data were processed

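The authors deposited array intensity values made with robust multichip analysis (RMA) per the series design and the submitters' processing notes, without a version. They ran from 7.6 to 17972, a linear scale, so log2 was taken. The platform's probe table, with symbols updated through RefSeq gene numbers, gave 1 gene to 20832 of 31099 probe sets, 436 named several and 9831 none. The brightest probe set by mean stood for its gene. Genes with a group mean above the 40th percentile (log2 5.79, intensity 55.2) were tested, which left 11388, all 4 members among them. R 4.3.3 and limma 3.58.1 fitted a mean per group over 42 arrays (21 residual degrees of freedom, variance trend), and adjusted p-values are Benjamini-Hochberg over all tested genes. The samples are labelled biological replicates, and p-values measure the spread between them. Arrays have no read depth; their number, 2 a group, limits precision. On simulated data for LIF against NGAL, limma recovered 85.5% of log2 shifts of 0.5 and 98.5% of 1 among 11388 genes. For LIF days 5 and 7 against days 1 and 2 the shares were 52.5% and 88.0%. The simulated noise was independent between arrays, with no array apart from its replicate, and the shifted genes were drawn at random. The shares thus give no recovery for the 4 genes, whose SE in that contrast was 0.376 (C1qtnf12), 0.391 (Mgp), 0.42 (S100a6) and 0.789 (Plcxd3).

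The members and gene lists were chosen with earlier results of these data known. Named besides the 4 members were, per member, the 5 genes most alike by r, and, per family list, inducer and direction, up to 2 called genes with the smallest adjusted p in the late contrast. The alternatives were other filters, a further quantile normalization, other probe set rules, no variance trend, array weights, only the compared arrays, the replicate block over all arms or in each arm, the dap ratio, other days, and leaving out arrays. The Mgp promoter and protein sequences are not analysed here.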

Additional observations from a re-analysis of the deposited data

How the results depend on the processing

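No called difference of the 4 genes changed sign under any alternative run, but calls were lost and gained. They are given beside the results, except for calls gained without single arrays or without arrays chosen by marker level. Leaving out arrays by their marker levels, the block in each arm and the comparisons of late changes were chosen after seeing the data; these arrays were also apart in Mgp or C1qtnf12, so values without them support no call. Over the refits of a gene's difference that left out no single array, 519 kept direction and call, 17 lost a call, 19 gained one and 21 changed sign, all 21 in differences that were not called. For days 5 and 7 against days 1 and 2, the 1035 LIF and 1362 NGAL calls became 338 and 495 with only the compared arrays, and 901 for NGAL without the 2 arrays low in mesenchyme genes. LIF against NGAL (4751) had 589 calls on days 1 and 2 alone. LIF against ANX (570) had 314 with only the compared arrays, 71 on days 1 and 2, 257 on days 3, 4, 5 and 7 and 878 without the 3 arrays high in muscle genes. NGAL against ANX (4273) had 241 on days 1 and 2 and 6411 over all probe sets. Day 2 against day 1 (311) had 1014 with array weights, 479 with only the compared arrays, 168 with the dap ratio, and 9, 0 and 3 for LIF, NGAL and ANX alone; for NGAL, limma gave 1166 genes at an unadjusted p under 0.05. Inducer by day (4) had 0 with the stricter filter and with only the compared arrays (limma, 530 and 494 at an unadjusted p under 0.05), 2 with means of probe sets, 2 over all probe sets and 8 with array weights.

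The labels do not say that a replicate number marks a shared litter or day. The main fit took the samples to share only a number, so its p-values treat samples of different days as independent. Over 210 pairs of groups the correlation of replicate deviations ran from -0.646 to 0.742, with 88 above 0.1. Within arms 9 of 15 pairs with LIF, 13 of 15 with NGAL and 11 of 15 with ANX were above 0.1, with medians of 0.129, 0.298 and 0.199. Plcxd3 was higher in replicate 2 in 5 of 6 LIF, 0 of 6 NGAL and 5 of 6 ANX groups. For Mgp these counts were 5, 3 and 4 of 6. These values do not settle whether replicates of an arm share more than a number. With the replicate block, day 2 against day 1 had 545 calls, the test of inducer by day had 7, and no call of the 4 genes changed. With a replicate block in each arm, day 2 against day 1 had 595 calls and inducer by day 0 by limma (901 genes at an unadjusted p under 0.05), and 2 calls of the 4 genes were gained, as given above.

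Signs turned as follows on the log2 scale. For LIF days 5 and 7 against days 1 and 2, Plcxd3 became -0.090 with the dap ratio and -0.88 for day 7 against day 1, where C1qtnf12 became -0.24. Of the 3 arrays high in muscle genes, only replicate 2 of LIF day 7 enters that contrast. Without it Mgp, S100a6 and Plcxd3 became -0.39, -0.23 and -0.63. The late ANX change of S100a6 became 0.019 after quantile normalization. For LIF against ANX, S100a6 became -0.029 with the dap ratio, -0.0043 on days 1 and 2 and -0.088 without the 3 arrays, and Plcxd3 -0.12 on days 1 and 2. Mgp for NGAL against ANX became -0.32 on days 1 and 2. For day 2 against day 1, S100a6 and Plcxd3 became -0.067 and -0.46 with the dap ratio, Mgp, S100a6 and Plcxd3 -0.11, -0.38 and -0.67 with LIF alone, and S100a6 -0.022 with ANX alone. Without replicate 2 of LIF day 7, the late change of LIF against ANX became -0.45 for Mgp, -0.22 for S100a6 and 0.053 for C1qtnf12. The cause of these changes was not tested.

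Leaving out 1 array at a time gave 465 (without replicate 1 of LIF day 2) to 1186 calls late with LIF, 744 (without replicate 1 of NGAL day 2) to 1663 with NGAL and 1148 (without replicate 2 of ANX day 5) to 1610 with ANX. It gave 291 (without replicate 1 of ANX day 2) to 976 (without replicate 1 of ANX day 3) for LIF against ANX, 43 (without replicate 2 of NGAL day 1) to 509 (without its replicate 1) for day 2 against day 1 and 0 to 72 (without replicate 2 of NGAL day 7) for inducer by day, where the fits with 0 calls by limma had 562 to 642 genes at an unadjusted p under 0.05. Where a sign turned, the log2 ranges were, late with LIF, -0.39 to 0.86 for Mgp, -0.23 to 0.43 for S100a6 and -0.63 to 0.84 for Plcxd3. Late with ANX they were -0.15 to 0.27 for Mgp and -0.18 to 0.15 for S100a6. S100a6 ran from -0.16 to 0.25 for LIF against ANX and from -0.043 to 0.35 for day 2 against day 1. The late change of LIF against ANX ran from -0.45 to 0.80 for Mgp, -0.22 to 0.44 for S100a6 and -0.27 to 0.21 for C1qtnf12, and that of NGAL against ANX from -0.68 to 0.91 for Plcxd3. With 2 arrays a group, a group left with 1 array is assumed to vary like the others.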
